A study of Mus musculus with 24 samples.

Results

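The 35 genes described here encode NRF2, its inhibitor KEAP1, and the enzymes and carriers of the NRF2 antioxidant and glutathione response. They were chosen by symbol, from a list made with earlier results of these data known. Shares of the list set against all tested genes therefore describe the list and are not an independent test. All 35 are among the 23478 genes of the deposited count table, and all 35 were among the 12625 genes that passed the filter on low counts.

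The data are mRNA sequencing counts from 24 libraries of 4T1-T cells, 4 for each of 6 groups. 4T1-T is a clonal line of the mouse mammary carcinoma 4T1, which spreads from the mammary gland to the lung. The cells carried 1 of 3 short hairpin RNAs, came from primary tumors or from lung metastases by selection with 6-thioguanine, to which 4T1 cells are resistant, and were replated. The comparisons ask how a hairpin against Asns, the asparagine synthetase gene, and the site of recovery relate to mRNA levels. The 6 groups were tumor shRenilla, tumor shAsns-1, tumor shAsns-2, lung shRenilla, lung shAsns-1 and lung shAsns-2. shRenilla is the control hairpin, so every group carried a hairpin, and all cells were selected with 6-thioguanine and kept in DMEM to which non-essential amino acids were added. The labels mark 4 replicates, A to D, in each group, without saying whether they came from separate animals or cultures. The p-values therefore measure the spread between these libraries, which may be technical. Because RNA was taken from bulk cultures, a lower level may reflect fewer cells with the transcript or less transcript per cell, and these cannot be told apart.

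The targeted gene was read first. Asns averaged 82.8 ± 15.9 CPM (counts scaled to library size; SD, n = 4) in tumor shRenilla, 36.8 ± 10.3 in tumor shAsns-2 and 170.4 ± 17.1 in tumor shAsns-1. In lung cells it averaged 63.6 ± 7.89 with shRenilla, 44.6 ± 6.51 with shAsns-2 and 194 ± 18.2 with shAsns-1. Asns was thus higher, not lower, in the libraries labelled shAsns-1 at both sites, by 1.04 log2 units in tumor cells (adjusted p = 1.47e-05, edgeR) and 1.61 in lung cells (adjusted p = 2.62e-06). It was lower with shAsns-2 in tumor cells, by -1.18 (adjusted p = 0.00122), and the lung difference of -0.51 did not pass (adjusted p = 0.405). Whether the hairpin labelled shAsns-1 lowered Asns at any stage, and whether its libraries carry the right label, was not tested. In what follows tumor shAsns-1 and lung shAsns-1 stand for the libraries labelled so, and no difference named for them can be read as one of lowered Asns. The library totals ranged from 8480908 to 38049196 counts per library. Library B of lung shRenilla and library D of lung shAsns-2 stood farthest from the other libraries of their groups, and they are named beside the results they touch.

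NRF2 is a transcription factor that KEAP1, an adaptor of a ubiquitin ligase, holds at a low level. When electrophiles or oxidants modify cysteines of KEAP1, NRF2 accumulates, pairs with small MAF proteins and binds antioxidant response elements beside genes that make glutathione, reduce peroxides, supply NADPH, store iron, conjugate electrophiles and export the conjugates. NRF2 activity is mainly set at the protein level, so the mRNA of Nfe2l2, its gene, is not a readout of that activity. In mammary carcinoma and other tumors the pathway is known for protecting cells from oxidative stress.

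The letters that NRF2 reads were looked for in RefSeq promoter windows (GRCm38.p6) that run from 250 bases before to 50 bases after a transcription start, 300 bases in all. Windows were found for 29 of the 35 genes, 40 windows in total. The antioxidant response element core TGACNNNGC, searched on both strands, was in 12 of the 40 windows and in 11 of the 29 genes. Over all 32851 windows the core was in 12.4%, and over all 27025 genes in 14%. The AP-1 site TGACTCA, whose letters can overlap with the core, was in 6 of the 40 windows and 6 of the 29 genes. Among the windows searched it was in 5.2%, and among their genes in 5.95%. The 12 cores are shown with 10 bases on both sides because they let the variable middle bases be compared. Each is printed 5′ to 3′ on the strand that carries the core, which is in capitals.
Nfe2l2, chr2:75704885-75704913, minus strand: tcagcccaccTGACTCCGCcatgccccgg
Gclm, chr3:122245413-122245441, minus strand: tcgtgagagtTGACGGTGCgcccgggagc
Srxn1, chr2:152105542-152105570, minus strand: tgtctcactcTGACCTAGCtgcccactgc
Txnrd1, chr10:82859104-82859132, minus strand: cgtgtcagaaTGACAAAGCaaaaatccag
Prdx1, chr4:116685456-116685484, minus strand: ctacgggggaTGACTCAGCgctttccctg
G6pdx, chrX:74428919-74428947, plus strand: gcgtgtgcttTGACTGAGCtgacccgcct
Pgd, chr4:149166061-149166089, minus strand: atttcagagcTGACATTGCactgatcgga
Me1, chr9:86695902-86695930, minus strand: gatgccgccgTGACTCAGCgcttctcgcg
Abcc4, chr14:118676936-118676964, minus strand: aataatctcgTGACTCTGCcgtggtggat
Abcc4, chr14:118706226-118706254, plus strand: cggcccgcccTGACCCCGCctctcggggc
Gstm5, chr3:107895802-107895830, plus strand: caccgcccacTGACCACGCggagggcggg
Mgst1, chr6:138140461-138140489, minus strand: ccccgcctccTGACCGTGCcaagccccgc
The cores of Prdx1 and Me1 are the same 9 letters and both also contain the AP-1 site. In the GENCODE M21 annotation the cores of Gclm and Prdx1 and the second one of Abcc4 lie outside annotated genes. Those of Srxn1, G6pdx, Pgd, Me1 and Mgst1 lie in an annotated exon of the gene itself, and those of Txnrd1 and the first one of Abcc4 in an intron. The core of Nfe2l2 lies in an exon of the neighbouring E030042O20Rik, and that of Gstm5 in an exon of 4933431E20Rik. No core was found in the windows of Keap1, Nqo1, Gstm1, Gstm2 or Gstt1, which says only that these letters are not in those 300 bases. The 250 bases upstream of Gclm and of Gstm1 are given whole, as a promoter with the core and one without it, since both genes were higher in the tumor shAsns-1 cells.
Gclm, chr3:122245307-122245556, plus strand: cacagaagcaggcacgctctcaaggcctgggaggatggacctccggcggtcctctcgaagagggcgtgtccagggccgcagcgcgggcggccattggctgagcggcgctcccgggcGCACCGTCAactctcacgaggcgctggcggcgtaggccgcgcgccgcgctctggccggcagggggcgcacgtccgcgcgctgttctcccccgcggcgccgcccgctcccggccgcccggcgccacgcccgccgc
Gstm1, chr3:108017974-108018223, minus strand: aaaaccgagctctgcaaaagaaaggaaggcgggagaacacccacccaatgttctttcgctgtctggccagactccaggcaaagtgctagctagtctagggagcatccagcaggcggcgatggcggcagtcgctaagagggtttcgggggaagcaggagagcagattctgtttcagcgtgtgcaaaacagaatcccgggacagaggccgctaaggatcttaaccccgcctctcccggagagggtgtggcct

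Levels spanned a wide range. Per kilobase of exon, Prdx1, a peroxiredoxin that reduces hydrogen peroxide, had group means from 1261 to 1944 CPM per kb and was the highest in 5 of the 6 groups. In lung shAsns-1 it came after Ftl1. The length was that of all annotated exons together, which need not be that of the expressed mRNA, and the order depends on it. Without the length, the highest group mean was 6005 CPM for Fth1 and 5916 CPM for Prdx1. Fth1 and Ftl1, the heavy and light chains of the iron store ferritin, had group means from 902 to 1731 and from 1028 to 1746 CPM per kb. At the other end Gstt1, a theta-class glutathione transferase, averaged 0.0982 to 0.969 CPM per kb, and its raw counts were between 1 and 62 per library. The summed level of the 35 genes was 18710 to 19840 CPM in the 4 tumor shAsns-1 libraries and 11500 to 14980 CPM in the 4 tumor shRenilla libraries, without overlap. That sum is carried mainly by Prdx1, Fth1 and Ftl1.

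**Figure D1:**
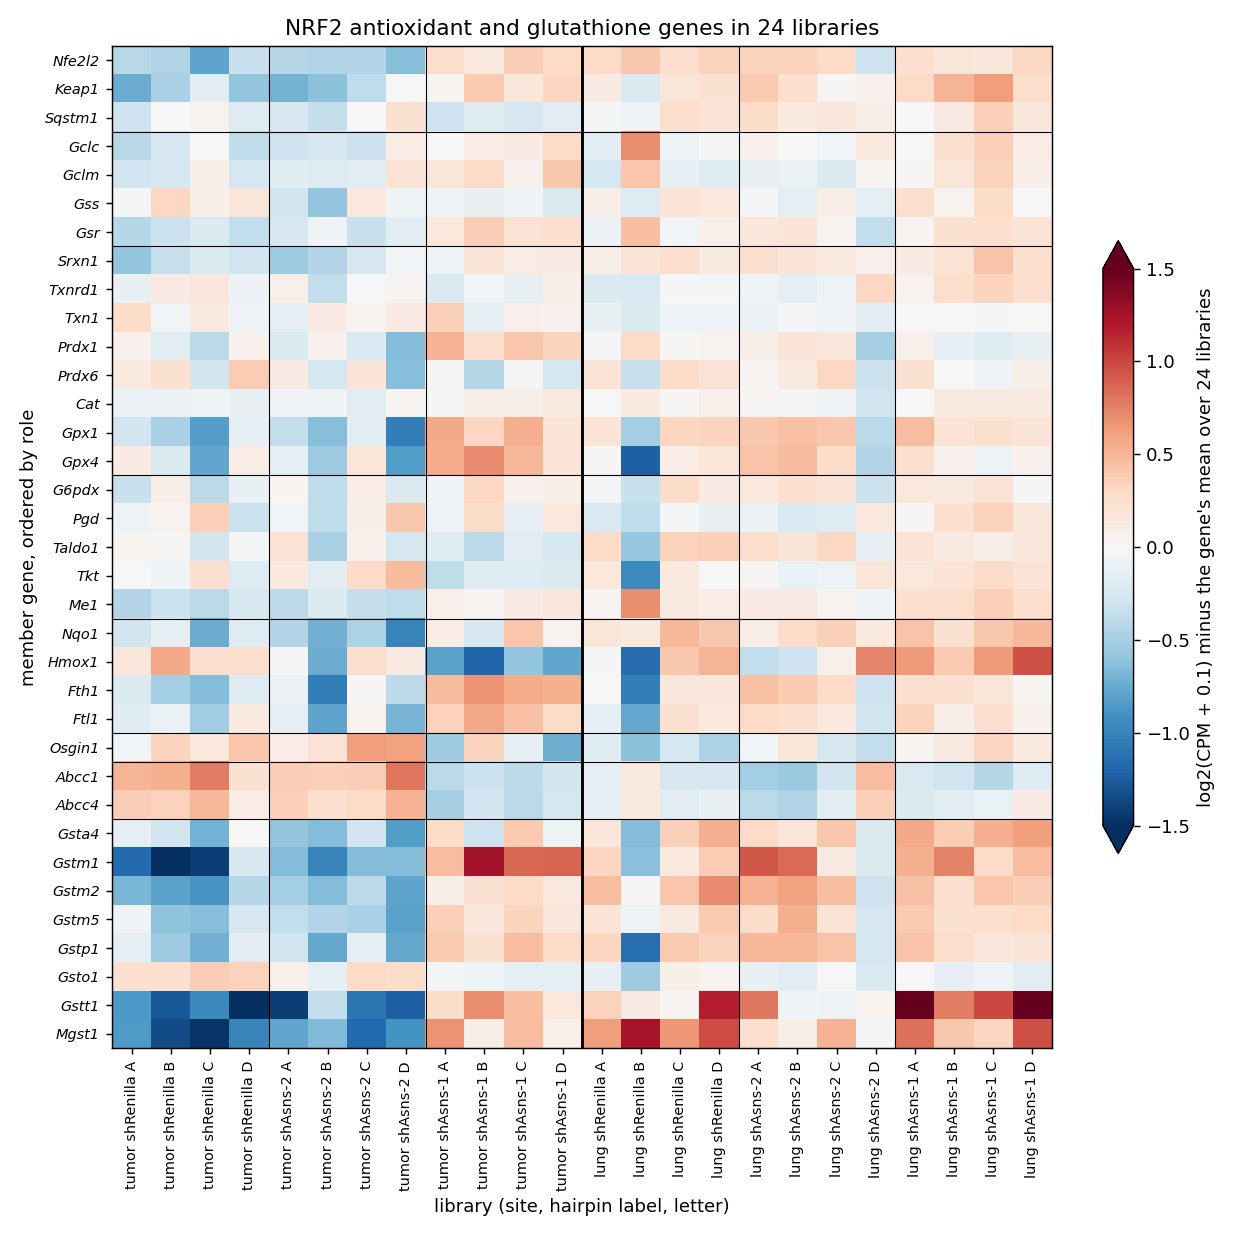
Level of each of the 35 genes (rows, by role) in each of the 24 libraries (columns, by site and hairpin label), as log2 CPM with a small pseudocount minus the gene's mean over all libraries, so red is above and blue below that mean. Most rows turn from blue to red between the 8 tumor shRenilla and shAsns-2 libraries and the 4 tumor shAsns-1 libraries, Abcc1 and Abcc4 turn the other way, and lung shRenilla B departs from its group in Gpx4, Fth1, Gstp1 and Hmox1.

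In tumor cells, 19 of the 35 genes rose and 4 fell in the libraries labelled shAsns-1 against shRenilla (edgeR's quasi-likelihood test, Benjamini-Hochberg adjusted p under 0.05 over 12625 genes). The 23 called genes were 65.7% of the list, where 33.9% of all tested genes were called, 16.2% higher and 17.7% lower. The median log2 fold change was 0.41 over the 35 genes and -0.01 over all tested genes. The 4 libraries of each group did not overlap for 18 genes on the high side and 5 on the low side, against 18.6% of all tested genes in each direction.

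Both ends of the NRF2 and KEAP1 pair were higher. Nfe2l2 stood at 197, 182, 212 and 202 CPM in tumor shAsns-1 libraries A to D and at 123, 120, 94.8 and 131 CPM in tumor shRenilla. Every tumor shAsns-1 library was above every tumor shRenilla library, and the log2 fold change was 0.76 ± 0.12 (SE; adjusted p = 2.1e-05, edgeR), a 1.69-fold difference. Keap1 stood at 23.9, 30.7, 26.2 and 29.2 CPM in tumor shAsns-1 and at 13.9, 16.6, 20.8 and 15.4 CPM in tumor shRenilla. It too was apart in all 4 libraries, with a log2 fold change of 0.72 ± 0.15 (adjusted p = 0.000489, edgeR). Sqstm1, whose product p62 is an autophagy receptor that binds KEAP1, did not pass, at -0.12 ± 0.12.

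Of the 4 glutathione synthesis and recycling genes, 3 rose. Gsr, the reductase that regenerates reduced glutathione, stood at 276, 319, 287 and 293 CPM in tumor shAsns-1 and at 184, 198, 212 and 191 CPM in tumor shRenilla, with a log2 fold change of 0.58 ± 0.12 (adjusted p = 5e-04, edgeR). Gclc and Gclm, the catalytic and modifier subunits of the rate-limiting glutamate-cysteine ligase, rose by 0.39 and 0.41 (adjusted p = 0.0417 and 0.0195). Gss, which completes glutathione, had a log2 fold change of -0.26 and did not pass. The calls of Gclc and Gclm are near the threshold. That of Gclc was lost (adjusted p 0.0688 to 0.118) without any 1 of B, C or D of tumor shAsns-1 and any 1 of A, B or D of the tumor controls, and that of Gclm without tumor shAsns-1 D or tumor shRenilla B or D (0.0525 to 0.0709).

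Of the 8 thioredoxin and peroxidase genes, 4 rose and none fell. Gpx1, the main cytosolic glutathione peroxidase, rose by 0.82 ± 0.20 (adjusted p = 0.00221, edgeR), from 634 ± 128 to 1120 ± 140 CPM (SD, n = 4). Srxn1, the sulfiredoxin that repairs overoxidised peroxiredoxins, rose by 0.45 (adjusted p = 0.00186). Prdx1 rose by 0.49 (adjusted p = 0.0122) and Gpx4, which reduces lipid hydroperoxides, by 0.65 (adjusted p = 0.0417). Txn1 (thioredoxin), Txnrd1 (its reductase), Prdx6 and Cat (catalase) lay between -0.29 and 0.17 and did not pass. Prdx1 lost its call without tumor shRenilla C (adjusted p = 0.0565). Gpx4 lost it without any 1 of tumor shAsns-1 A, B or C or tumor shRenilla B or C (0.074 to 0.164). The call of Gpx4 also ended with GC content and length offsets (0.0593) and without the filter on low counts (0.127). Reads of Gpx4 are uncertain besides, since 34.7% of its 50-base stretches also occur in another gene, chiefly the pseudogene Gpx4-ps2.

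Among the NADPH suppliers only Me1, cytosolic malic enzyme, rose of the 5 listed, by 0.45 ± 0.11 (adjusted p = 0.00213, edgeR). G6pdx and Pgd, the oxidative pentose phosphate dehydrogenases, and Taldo1 and Tkt of its non-oxidative branch lay between -0.25 and 0.29 without passing. Me1 shares 22.9% of its 50-base stretches with other genes, chiefly Gm7049, so its count is uncertain.

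The quinone, heme and iron genes all changed, but not in 1 direction. Fth1 stood at 5634 to 6504 CPM in tumor shAsns-1 and 2598 to 3555 CPM in tumor shRenilla, with medians of 5940 and 3183 CPM and a log2 fold change of 0.94 ± 0.21 (adjusted p = 0.00132, edgeR). Ftl1 rose by 0.56 (adjusted p = 0.0245) and Nqo1, a quinone reductase often used as an NRF2 readout, by 0.43 (adjusted p = 0.0197). Hmox1, the heme oxygenase that frees iron from heme and that BACH1 represses, went the other way. It stood at 40.0, 30.4, 46.3 and 40.6 CPM in tumor shAsns-1 and at 78.7, 104, 82.4 and 84.3 CPM in tumor shRenilla. No tumor shAsns-1 library reached the lowest tumor shRenilla library, and Hmox1 fell by 1.15 ± 0.26 on the log2 scale (adjusted p = 0.00143, edgeR), 2.22-fold. Nqo1 lost its call without tumor shAsns-1 C (adjusted p = 0.119) or tumor shRenilla C (0.11). Ftl1 lost it without tumor shAsns-1 B or C or tumor shRenilla A or C (0.0534 to 0.105), and 50.9% of its 50-base stretches also occur in other genes, chiefly Ftl1-ps1.

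Osgin1, an oxidative stress-induced growth inhibitor, had a log2 fold change of -0.47 ± 0.21 that did not pass (adjusted p = 0.0808, edgeR). Both efflux genes fell. Abcc1, which encodes the conjugate pump MRP1, stood at 57.4, 60.9, 57.9 and 62.8 CPM in tumor shAsns-1 and at 108, 110, 129 and 88.8 CPM in tumor shRenilla. The groups did not overlap, and Abcc1 fell by 0.87 ± 0.17 (adjusted p = 0.000226). Abcc4, which encodes MRP4, fell by 0.70 (adjusted p = 0.000309) and was likewise apart in all 4 libraries.

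The largest increases were among the 8 glutathione transferase genes, of which 6 rose and 1 fell. Mgst1, a membrane-bound transferase with peroxidase activity, stood at 72.5, 48.5, 62.7 and 48.0 CPM in tumor shAsns-1 and at 25.1, 17.8, 16.3 and 22.8 CPM in tumor shRenilla. The lowest of the first 4 libraries was well above the highest of the others, and the log2 fold change was 1.5 ± 0.18 (adjusted p = 4.77e-07, edgeR). Gstm1, a mu-class cytosolic transferase, stood at 2.97, 5.24, 3.95 and 3.97 CPM against 0.890, 0.641, 0.734 and 1.79 CPM in tumor shRenilla. Its log2 fold change was 1.99 ± 0.29 (adjusted p = 9.52e-06). Gstm1 was measured from 11 to 143 reads per library, and 18.9% of its 50-base stretches occur in other genes, chiefly Gstm2-ps1.

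The neighbouring Gstm2 stood at 19.1, 20.8, 21.8 and 19.7 CPM in tumor shAsns-1 and at 11.1, 10.2, 9.61 and 13.2 CPM in tumor shRenilla, again apart, with a log2 fold change of 0.89 ± 0.16 (adjusted p = 0.000118, edgeR). Gstt1 stood at 0.610, 0.848, 0.705 and 0.555 CPM against 0.223, 0.143, 0.2 and 0.0350 CPM. Every tumor shAsns-1 library was higher, by 2.14 ± 0.46 log2 units (adjusted p = 0.000759), but the tumor shRenilla libraries held only 6, 4, 6 and 1 reads of Gstt1. Gstm5 rose by 0.64 (adjusted p = 0.00168) and Gstp1, a pi-class enzyme, by 0.71 (adjusted p = 0.0164). Gsto1, of the omega class, fell by 0.39 (adjusted p = 0.00887), and Gsta4, of the alpha class, had 0.35 and did not pass. The call of Gstp1 was lost without tumor shRenilla B (adjusted p = 0.0566) or C (0.071), and without the filter on low counts (0.0581). Of its 50-base stretches 33.7% also occur in other genes, chiefly Gstp2.

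**Figure D2:**
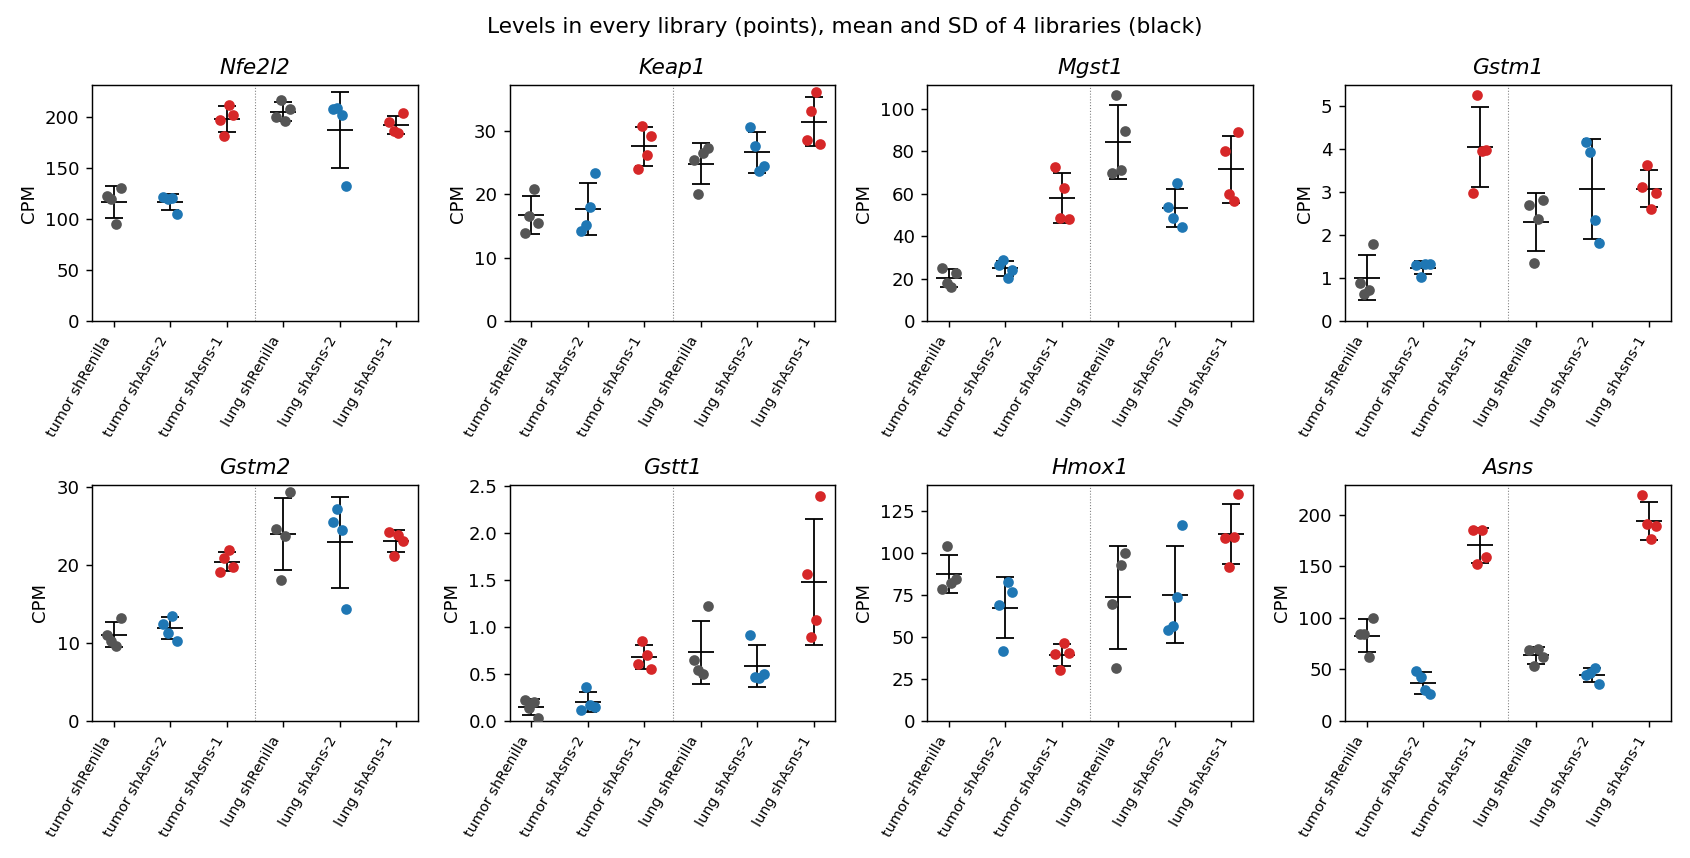
CPM in every library (points) with the mean and SD of the 4 libraries (black) for Nfe2l2, Keap1, Mgst1, Gstm1, Gstm2, Gstt1, Hmox1 and the targeted gene Asns, with tumor groups left and lung groups right of the dotted line. Tumor shRenilla and tumor shAsns-2 lie together at the bottom for Nfe2l2, Mgst1, Gstm1, Gstm2 and Gstt1, and tumor shAsns-1 lies above them. The mean of Hmox1 is lowest in tumor shAsns-1, whose libraries lie at 30.4 to 46.3 CPM. Tumor shAsns-2 B and lung shRenilla B also lie within that range.

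With shAsns-2, the hairpin with which Asns was lower in tumor cells, none of the 35 genes was called against tumor shRenilla, where 0.0634% of all tested genes were called by edgeR, 0.0396% higher and 0.0238% lower. For no gene of the list were the 2 groups apart, against 1.87% of all tested genes on the high side and 1.46% on the low side. At an unadjusted p under 0.05 there were 2 genes of the list and 893 of all tested genes, and DESeq2 and limma also called 0 of the list. Nfe2l2 stood at 122, 120, 121 and 105 CPM in tumor shAsns-2, within the range of tumor shRenilla, and its log2 fold change was 0.00 ± 0.12. Keap1, at 14.2, 15.2, 17.9 and 23.4 CPM, Gstm2, at 12.4, 11.3, 13.5 and 10.3 CPM, and Hmox1, at 69.0, 41.8, 82.5 and 76.8 CPM, also overlapped with tumor shRenilla. Mgst1 was at 26.3, 28.7, 20.1 and 24.3 CPM, Gstm1 at 1.31, 1.01, 1.32 and 1.32 CPM and Gstt1 at 0.120, 0.357, 0.173 and 0.152 CPM. All 3 overlapped with tumor shRenilla as well. Tumor shAsns-2 A was the smallest library, with 8480908 counts, and tumor shAsns-2 D held 18397852. Their root-mean-square log2 distances from the rest of their group were 0.432 and 0.451. In tumor shRenilla these distances were 0.289 to 0.358. Without tumor shAsns-2 A, or without D, edgeR also called 0 of the list. A missed threshold does not show that the groups are alike.

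The 2 Asns hairpins were also compared with each other in tumor cells. Against tumor shAsns-2, 18 of the 35 genes rose and 5 fell in tumor shAsns-1, where edgeR called 27.1% of all tested genes, 12.1% higher and 15% lower. The groups were apart for 16 genes on the high side and 3 on the low side, against 13.9% and 15.8% of all tested genes. The comparison shares the tumor shAsns-1 libraries with the one above, so its values are given beside the earlier ones and are not separate support. Nfe2l2 rose by 0.76 ± 0.12, Keap1 by 0.63 ± 0.15, Mgst1 by 1.22 ± 0.18, Gstm1 by 1.72 ± 0.30, Gstm2 by 0.78 ± 0.16 and Gstt1 by 1.55 ± 0.45. Nqo1 rose by 0.75 ± 0.14 (adjusted p = 0.00028), and Gsta4 by 0.68 ± 0.20 (adjusted p = 0.0121). Hmox1 fell by 0.78 ± 0.26 (adjusted p = 0.0298), Osgin1 by 0.68 (adjusted p = 0.0185), Tkt by 0.44 (adjusted p = 0.0463), Abcc1 by 0.83 and Abcc4 by 0.72. The other genes that rose were Gsr, Srxn1, Prdx1, Gpx1, Gpx4, Me1, Fth1, Ftl1, Gstm5 and Gstp1, by 0.40 (Srxn1) to 0.92 (Gpx1).

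Of these, 5 calls were lost when 1 library was left out. Tkt lost its call without any 1 of the 4 tumor shAsns-1 libraries or tumor shAsns-2 A, C or D (adjusted p 0.0754 to 0.166), and Hmox1 without tumor shAsns-1 A, B or D or tumor shAsns-2 A, C or D (0.0607 to 0.102). Osgin1 lost it without tumor shAsns-1 A or D or tumor shAsns-2 C or D (0.055 to 0.0894), Gpx4 without tumor shAsns-1 B or tumor shAsns-2 B or D (0.0557 to 0.0782), and Gsta4 without tumor shAsns-1 C (0.0548). Without the filter on low counts Gpx4 (0.0682), Hmox1 (0.12) and Tkt (0.0743) lost theirs too. Tkt also lost its call with DESeq2's scaling in edgeR (0.0526), and Osgin1 with only the compared groups fitted (0.0581).

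In lung cells the hairpin comparisons gave another picture. edgeR called 0 of the 35 genes in shAsns-1 against shRenilla (0.206% of all tested genes called), 0 in shAsns-2 against shRenilla (0%) and 0 in shAsns-1 against shAsns-2 (0.261%). At an unadjusted p under 0.05 the list held 6, 1 and 4 genes, or 17.1%, 2.86% and 11.4% of it, against 13.2%, 8.46% and 5.6% of all tested genes. limma with library weights called 4 (Gclc, Gclm, Pgd and Txnrd1, all higher), 3 (Abcc1, Hmox1 and Mgst1, all lower) and 9 of the list. These are 11.4%, 8.57% and 25.7% of the list, against 6.0%, 12.3% and 15.2% of all tested genes called by limma. DESeq2 called 0 of the list in all 3. Without library B of lung shRenilla and library D of lung shAsns-2, edgeR called Hmox1 alone, higher in shAsns-1 than in shAsns-2, where it called 1.42% of all tested genes.

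None of the 3 regulators was called between lung groups. Nfe2l2 stood at 200.5, 217, 196 and 208 CPM in lung shRenilla, at 208, 209, 202 and 132 CPM in lung shAsns-2 and at 195, 186, 184 and 204 CPM in lung shAsns-1. Lung shAsns-2 D, one of the libraries that stood apart, was far below the other 11 for Nfe2l2. Keap1 stood at 25.3, 20.1, 26.4 and 27.3 CPM in lung shRenilla, at 30.6, 27.6, 23.6 and 24.4 CPM in lung shAsns-2 and at 28.6, 33.1, 36.1 and 27.9 CPM in lung shAsns-1. Every lung shAsns-1 library was above every lung shRenilla library for Keap1, with a log2 fold change of 0.34 ± 0.15 that did not pass (adjusted p = 0.333, edgeR). Sqstm1 stood at 171, 167, 209.9 and 199.6 CPM in lung shRenilla, at 211, 193, 196 and 187 CPM in lung shAsns-2 and at 175, 190.3, 224 and 196 CPM in lung shAsns-1, and these ranges overlapped. Of the 35 genes 6 lay apart and higher in this way and none lower, against 4.85% and 6.01% of all tested genes. Between lung shAsns-1 and lung shAsns-2, Me1 and Txn1 lay apart and higher and no gene lower, against 3.17% and 2.23% of all tested genes.

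None of the 8 transferase genes was called between lung groups by edgeR. Mgst1 stood at 70.0, 107, 71.4 and 89.4 CPM in lung shRenilla, at 54.0, 48.8, 65.3 and 44.6 CPM in lung shAsns-2 and at 80.3, 59.9, 56.8 and 89.0 CPM in lung shAsns-1. It is the gene of the list for which lung shAsns-2 lay wholly below lung shRenilla, with a log2 fold change of -0.67 ± 0.17 (1.93% of all tested genes lay apart on that side and 1.24% on the other), but the difference did not pass in edgeR (adjusted p = 0.279). Gstm1 stood at 2.69, 1.35, 2.37 and 2.80 CPM in lung shRenilla, at 4.15, 3.93, 2.34 and 1.81 CPM in lung shAsns-2 and at 3.12, 3.62, 2.59 and 2.97 CPM in lung shAsns-1. Gstm2 stood at 24.6, 18.0, 23.7 and 29.3 CPM, at 25.5, 27.2, 24.4 and 14.3 CPM and at 24.3, 21.1, 23.8 and 23.1 CPM in the same order. The lowest values of Gstm1 and Gstm2 in the first 2 groups belonged to library B and library D, respectively. Gstt1 stood at 0.644, 0.545, 0.502 and 1.22 CPM in lung shRenilla, at 0.918, 0.464, 0.456 and 0.497 CPM in lung shAsns-2 and at 1.56, 0.895, 1.07 and 2.39 CPM in lung shAsns-1, each measured from 14 to 62 reads. Its log2 fold change of 0.99 ± 0.33 in shAsns-1 against shRenilla did not pass (adjusted p = 0.263).

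Hmox1 was scattered within lung shRenilla, second only to Gstt1 among the 35 genes by coefficient of variation (41.9% and 45.9%). It stood at 69.4, 31.8, 92.9 and 100.002 CPM there, at 53.9, 56.3, 73.8 and 116 CPM in lung shAsns-2 and at 109, 91.8, 109 and 135 CPM in lung shAsns-1. Its lowest value belonged to lung shRenilla B and its highest value in the shAsns-2 group to lung shAsns-2 D. The difference of 0.60 ± 0.26 between shAsns-1 and shRenilla did not pass in edgeR (adjusted p = 0.34).

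Site of recovery was compared within each hairpin. With shRenilla, 11 of the 35 genes were higher and 4 lower in lung than in tumor cells, where edgeR called 21.8% of all tested genes, 12% higher and 9.82% lower. With shAsns-2, 13 were higher and 2 lower, where 20.9% of all tested genes were called, 10.1% higher and 10.9% lower. Lung and tumor libraries were apart for 9 genes on the high side and 4 on the low side with shRenilla, against 12.2% and 10.1% of all tested genes, and for 11 and 0 with shAsns-2, against 8.54% and 9.66%. These comparisons share no library. Of the 15 genes called in each, 12 were called in both and in the same direction, 10 of them higher and 2 lower in lung, and none was called in opposite directions. The 12 are 34.3% of the list, where 13.7% of all tested genes were called in both in the same direction. As a share of the calls they are 80% with either hairpin, against 62.8% of all calls with shRenilla and 65.3% of all calls with shAsns-2. The median log2 fold change of the list was 0.21 with shRenilla and 0.25 with shAsns-2, against 0.00 and 0.01 over all tested genes.

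The genes higher in lung with both hairpins were Nfe2l2, Keap1, Srxn1, Me1, Nqo1, Gstm1, Gstm2, Gstm5, Gstt1 and Mgst1. Nfe2l2 rose by 0.81 ± 0.12 with shRenilla (adjusted p = 1.25e-05, edgeR) and by 0.68 ± 0.12 with shAsns-2 (adjusted p = 0.000137), with no overlap between lung and tumor libraries in either. Keap1 rose by 0.57 and 0.58 (adjusted p = 0.0061 and 0.00617). Mgst1 rose 4.12-fold with shRenilla, a log2 fold change of 2.04 ± 0.18 (adjusted p = 4e-09), and 2.14-fold with shAsns-2, at 1.10 ± 0.18 (adjusted p = 6.94e-05). Gstt1 rose by 2.27 ± 0.45 and 1.34 ± 0.45, Gstm1 by 1.18 ± 0.30 and 1.33 ± 0.30, and Gstm2 by 1.12 ± 0.16 and 0.95 ± 0.16. Nqo1 rose by 0.64 and 0.87, Me1 by 0.62 and 0.40, Gstm5 by 0.54 and 0.75 and Srxn1 by 0.52 and 0.47. The efflux genes were the 2 that fell with both hairpins, Abcc1 by 0.63 and 0.64 and Abcc4 by 0.40 and 0.49.

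Some genes were called with 1 hairpin only, and whether they differ between hairpins was tested as well. With shRenilla alone Gsr was higher (0.45, adjusted p = 0.00741) and Osgin1 and Gsto1 were lower (-0.64 and -0.41). With shAsns-2 alone Gpx1 (0.76), Gsta4 (0.76) and Gstp1 (0.79) were higher. In edgeR's test of the difference between these site effects no gene of the list was called, nor any of the 12625 tested genes (0%). At an unadjusted p under 0.05 there were 1 gene of the list, Mgst1 with -0.95 ± 0.25, and 599 of all tested genes. DESeq2 and limma also called 0 of the list.

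Leaving out 1 library ended several of these calls. With shRenilla, Abcc4 lost its call without tumor shRenilla A, B or C or lung shRenilla A, C or D (adjusted p 0.0564 to 0.0929), Osgin1 without tumor shRenilla B or D or lung shRenilla B or D (0.0652 to 0.0729), and Gstm5 without tumor shRenilla C (0.0521). With shAsns-2, Gstt1 lost its call without tumor shAsns-2 A, C or D or lung shAsns-2 A (0.0592 to 0.154), Gstp1 without lung shAsns-2 B or 1 of the libraries B and D of tumor shAsns-2 (0.0503 to 0.0526), and Abcc4 without lung shAsns-2 A or B (0.0603 and 0.0685). When only the 2 compared groups entered the fit, Abcc4 and Gsto1 (shRenilla) and Abcc1 and Abcc4 (shAsns-2) were no longer called (adjusted p 0.0526 to 0.0826). Without the filter on low counts Osgin1 (shRenilla, 0.0506) and Gstp1 (shAsns-2, 0.0503) lost theirs. With libraries B of lung shRenilla and D of lung shAsns-2 both left out, the counts went from 15 to 21 with shRenilla and from 15 to 23 with shAsns-2, while the share of all tested genes called went from 21.8% to 30.7% and from 20.9% to 38.8%. Lung shRenilla B also had relatively few reads from short and GC-rich genes, with a short-minus-long log2 difference of -0.38 and a high-minus-low GC difference of -0.82 from the typical library.

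**Figure D3:**
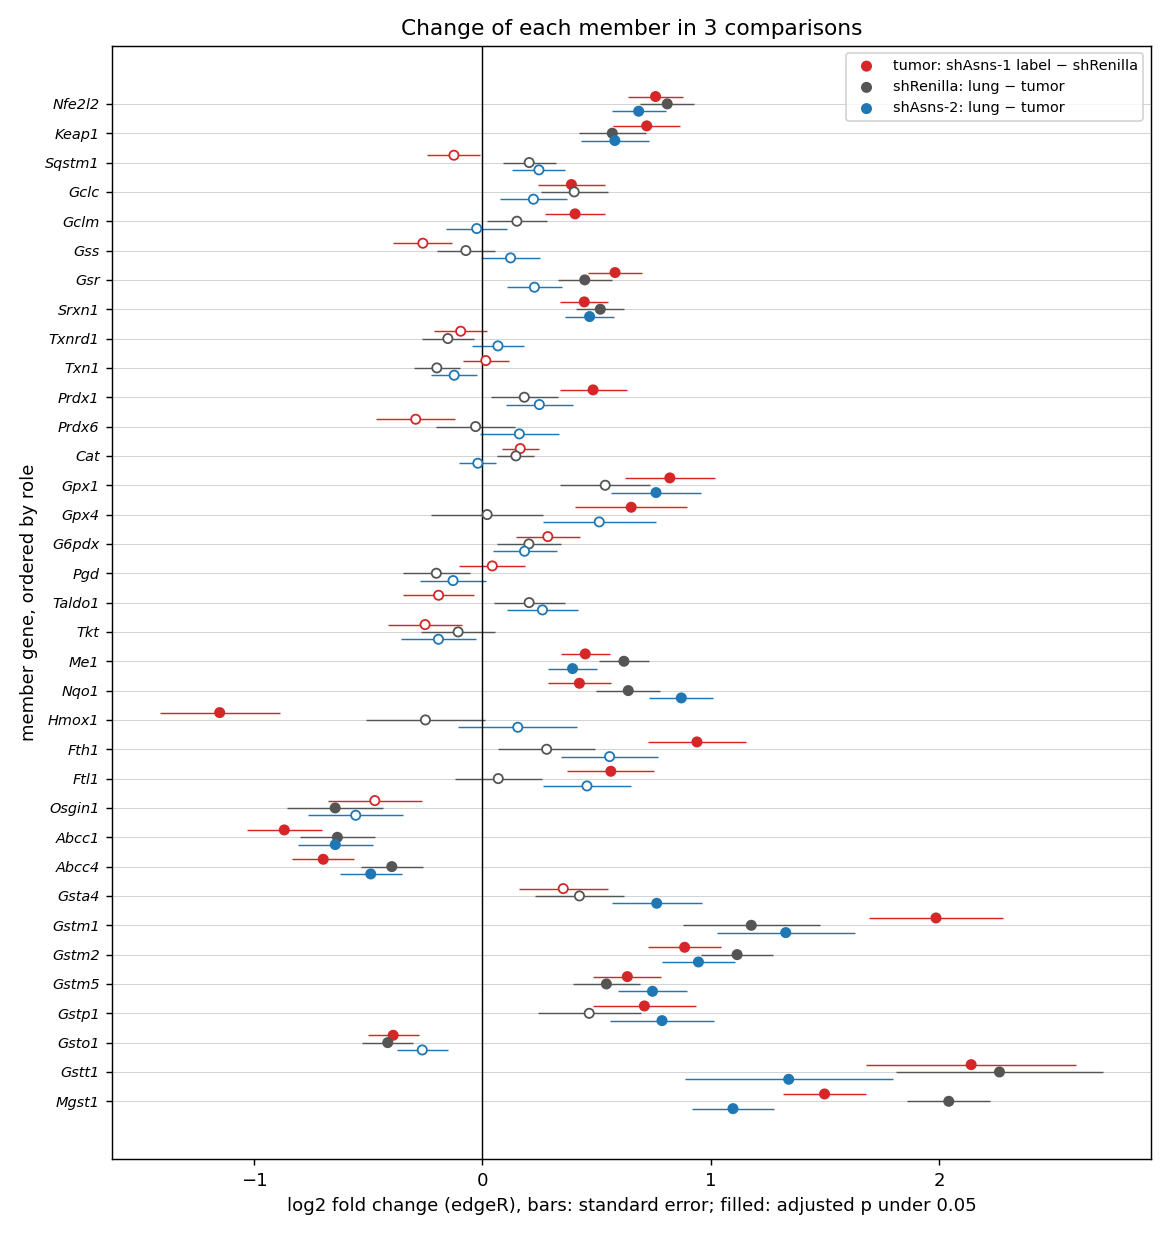
Log2 fold change with its standard error for each of the 35 genes in tumor shAsns-1 against tumor shRenilla (red), lung against tumor with shRenilla (grey) and lung against tumor with shAsns-2 (blue), filled where edgeR's adjusted p was under 0.05. The red and grey comparisons share the tumor shRenilla libraries. Mgst1, Gstm1 and Gstt1 lie at 1.10 or more in all 3, Abcc1 and Abcc4 lie below 0 in all 3, and Hmox1 is filled only in red.

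With the hairpin labelled shAsns-1 the site comparison was different. Of the 35 genes 3 were higher and 1 lower in lung than in tumor cells, and edgeR called 8.55% of all tested genes, 6% higher and 2.54% lower, so the share in the list, 11.4%, was near that background. Of the 35 genes 8 lay apart on the high side and 2 on the low side, against 15.5% and 14.5%. Hmox1 rose by 1.5 ± 0.27 (adjusted p = 0.000868), 2.83-fold, with all 4 lung libraries above all 4 tumor libraries. Gstt1 rose by 1.12 ± 0.34 (adjusted p = 0.0386), Sqstm1 rose by 0.40 ± 0.12 (adjusted p = 0.0313) and Prdx1 fell by 0.47 ± 0.15 (adjusted p = 0.0457). Nfe2l2 (-0.04), Keap1 (0.19), Mgst1 (0.30), Gstm1 (-0.39) and Gstm2 (0.18), which differed between sites with the other hairpins, did not pass here.

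The call of Hmox1 held in each of the 16 alternatives, leaving out each library included. Sqstm1, Prdx1 and Gstt1 each lost their calls when single libraries were left out. Sqstm1 and Prdx1 lost theirs without any 1 of tumor shAsns-1 A, B, C or D and lung shAsns-1 B, C or D (adjusted p 0.0548 to 0.122), and Gstt1 without any 1 of tumor shAsns-1 A, B, C or D and lung shAsns-1 A or D (0.0622 to 0.204). Sqstm1 also lost its call without the filter on low counts (0.0598). The count was 1 without tumor shAsns-1 A, B, C or D or lung shAsns-1 D, 2 without lung shAsns-1 B or C, and 3 without lung shAsns-1 A. It was 10 without the libraries B of lung shRenilla and D of lung shAsns-2, which are not in this comparison but enter the shared estimate of spread, and 14 when only the compared groups entered the fit. The share of all tested genes called went up with it, from 8.55% to 23.7% and 30.6%.

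The difference between sites in the shAsns-1 effect, lung minus tumor, was tested directly as an interaction. It was called for 10 of the 35 genes, 6 negative and 4 positive, where edgeR called 14.2% of all tested genes, 7.27% negative and 6.96% positive. Mgst1 had the most negative value among the called genes, -1.74 ± 0.25 (adjusted p = 2.68e-05), from an effect of 1.5 in tumor cells and -0.24 in lung cells. Gstm1 followed with -1.57 ± 0.40 (adjusted p = 0.00897), from 1.99 and 0.42, then Gstm2 with -0.94 (adjusted p = 0.00547), from 0.89 and -0.05, and Nfe2l2 with -0.85 ± 0.17 (adjusted p = 0.00102), from 0.76 and -0.09. Prdx1 (-0.65) and Gsr (-0.52) completed the negative side. These are genes that were higher with the shAsns-1 label in tumor cells and were not called in lung cells.

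The 4 positive differences belonged to genes with negative log2 fold changes in tumor shAsns-1 against tumor shRenilla. That of Osgin1 did not pass. Hmox1 had 1.75 ± 0.37 (adjusted p = 0.0021, edgeR), from -1.15 in tumor cells and 0.60 in lung cells. Osgin1 had 1.05 ± 0.30 (adjusted p = 0.0181), from -0.47 in tumor cells and 0.58 in lung cells. Abcc1 had 0.70 (adjusted p = 0.0447) and Abcc4 0.67 (adjusted p = 0.0193). Keap1, with -0.38 ± 0.21, did not pass. The count of 10 became 16 without the libraries B of lung shRenilla and D of lung shAsns-2, and 17 with GC content and length offsets, while the share of all tested genes called went from 14.2% to 20.9% and 19.6%. The calls of Gsr, Prdx1 and Abcc1 were lost without any 1 of several libraries. Those of Gsr and Abcc1 also ended without the filter on low counts (adjusted p 0.0571 and 0.0562). Abcc1 was lost without any of the 16 libraries except tumor shRenilla D, lung shAsns-1 C and lung shRenilla B (adjusted p 0.0513 to 0.0846), Gsr without any except tumor shAsns-1 A, tumor shRenilla C, lung shAsns-1 C and lung shRenilla A, C and D (0.0516 to 0.0813), and Prdx1 without tumor shAsns-1 A or C, tumor shRenilla B or C, lung shAsns-1 B, C or D or lung shRenilla B (0.0579 to 0.0836).

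**Figure D4:**
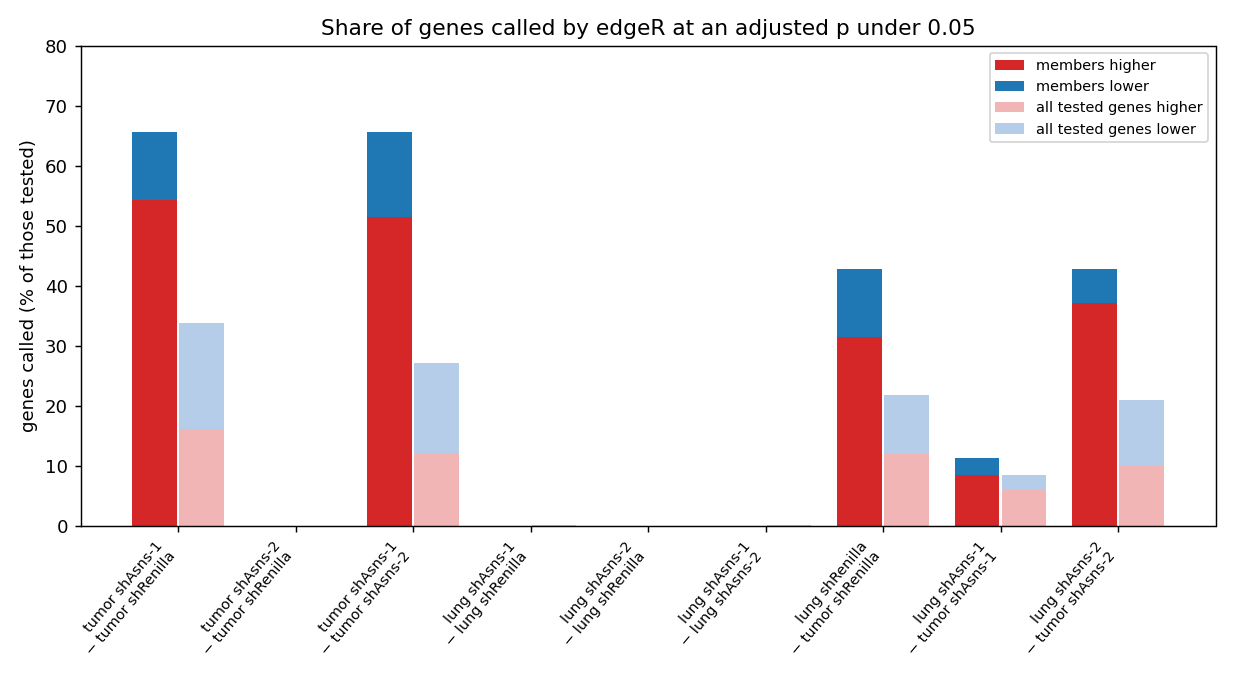
Share of genes called by edgeR (adjusted p under 0.05) in each of the 9 pairwise comparisons, for the 35 genes (dark bars) and for all 12625 tested genes (pale bars), with the higher share in red below the lower share in blue. The list reaches 65.7% in the 2 tumor comparisons with shAsns-1 and 42.9% in lung against tumor with shRenilla and with shAsns-2, and stays at 0 for tumor shAsns-2 against tumor shRenilla and the 3 lung hairpin comparisons.

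Of the 35 genes 8 were called in none of the 9 pairwise comparisons: Gss, Txnrd1, Txn1, Prdx6, Cat, G6pdx, Pgd and Taldo1. They include the thioredoxin pair Txn1 and Txnrd1 and 3 of the 4 listed pentose phosphate pathway genes. The share of all tested genes called in none of the 9 was not worked out. Whether 8 of 35 is many or few can therefore not be said. Txn1 averaged 686 to 796 CPM and Txnrd1 225 to 286 CPM over the 6 groups. G6pdx averaged 62.6 to 77.2 CPM and Pgd 67.5 to 87.7 CPM.

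A further 87 genes of the same pathway were listed, of which 71 were tested. In tumor shAsns-1 against tumor shRenilla 22 of the 71 rose and 8 fell (42.3%, against 33.9% of all tested genes called), and against tumor shAsns-2 22 rose and 6 fell (39.4%, against 27.1%). In lung against tumor 21 rose and 7 fell with shRenilla (39.4%, against 21.8%), and 23 rose and 6 fell with shAsns-2 (40.8%, against 20.9%). With shAsns-1, 4 rose and 2 fell, 8.45% of the 71, which is at the background of 8.55%. None of the 71 was called in tumor shAsns-2 against tumor shRenilla or in the 3 lung hairpin comparisons, where edgeR gave 6, 5, 7 and 10 genes at an unadjusted p under 0.05. These are 8.45%, 7.04%, 9.86% and 14.1% of the 71, against 7.07%, 13.2%, 8.46% and 5.6% of all tested genes. The site difference of the shAsns-1 effect was called for 15 of the 71, 13 negative and 2 positive (21.1%, against 14.2% of all tested genes).

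The genes with the largest of these changes at well-measured levels had various roles. Mgst2, a relative of Mgst1, rose from 8.15 to 19.7 CPM in tumor shAsns-1 against tumor shRenilla (log2 fold change 1.27 ± 0.16, adjusted p = 9.84e-07, edgeR) and to 18.8 CPM in lung shRenilla (1.20 ± 0.16, adjusted p = 2.94e-06). Glrx, a glutaredoxin that uses glutathione to reduce protein disulfides, rose from 42.5 to 76.2 CPM in the former (0.84) and to 85.0 CPM in the latter (1.00). Tfrc, the transferrin receptor that brings iron into the cell, fell from 1771 to 832 CPM (1.09 lower on the log2 scale, or -1.09, adjusted p = 7.29e-06) and to 1109 CPM (-0.68, adjusted p = 0.00231). Slc3a2, the heavy chain that cystine and large neutral amino acid transporters share, fell from 173 to 82.2 CPM in tumor shAsns-1 (-1.08, adjusted p = 3.36e-06). Idh1, a cytosolic NADPH source, rose by 0.93 in tumor shAsns-1 and by 0.74 in lung shRenilla, and Prdx5, a peroxiredoxin, by 0.71 and 0.60. Ugdh, which makes the UDP-glucuronate used in conjugation, rose from 365 to 616.5 CPM in lung shRenilla against tumor shRenilla (0.76, adjusted p = 6.16e-06). The pairs of values share the tumor shRenilla libraries.

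Markers of mammary epithelial cells were unequal in level, and some of them moved with the results. Krt8 was at 138 to 286 CPM and Krt18 at 174 to 422 CPM over all libraries. Krt7, Krt19, Cldn7, Esrp1, Epcam and Cdh1 averaged only 4.6, 3.84, 3.81, 1.14, 10.9 and 20.3 CPM in lung shAsns-1. In tumor shAsns-1 they averaged 3.50 (Esrp1) to 36.4 CPM (Cdh1). In both groups Krt8 and Krt18 carried most of the sum given next. The summed level of 8 mammary epithelial markers was 750 to 905 CPM in tumor shRenilla, 926 to 1057 in tumor shAsns-2, 455 to 617 in tumor shAsns-1, 430 to 600 in lung shRenilla, 380 to 789 in lung shAsns-2 and 420 to 477 in lung shAsns-1. In tumor shAsns-1 against tumor shRenilla 6 of the 8 fell, and in lung against tumor 5 of the 8 fell with shRenilla and 5 with shAsns-2. Against tumor shAsns-2, 6 of the 8 fell in tumor shAsns-1. With shAsns-1, 3 fell in lung against tumor. In lung shAsns-1, 2 fell against lung shRenilla and 2 against lung shAsns-2. Cdh1, which encodes E-cadherin, stood at 151 to 288 CPM in tumor shRenilla, at 29.9 to 47.6 CPM in tumor shAsns-1 and at 27.7 to 44.2 CPM in lung shRenilla. The part of this shift in the antioxidant genes' results was not tested.

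Markers of other cell types were mostly low, except Pdgfra and Cd14, which carried most of the fibroblast and the leukocyte and macrophage sums. Pdgfra averaged 15.9 CPM in tumor shRenilla, 27.5 in tumor shAsns-1 and 33.0 in lung shRenilla, and Cd14 15.0, 11.2 and 18.0. In lung shAsns-1 Col1a2, Col3a1 and Dcn averaged 3.19, 2.78 and 3.81 CPM, with highest values of 8.53, 8.53 and 8.61 CPM. The summed level of 9 fibroblast markers was 15.7 to 18.4 CPM in tumor shRenilla, 16.3 to 20.9 in tumor shAsns-2, 24.3 to 32.7 in tumor shAsns-1, 26.8 to 52.1 in lung shRenilla, 24.5 to 28.1 in lung shAsns-2 and 34.6 to 71.5 in lung shAsns-1. Of the 5 tested, 1 was higher in tumor shAsns-1 than in tumor shRenilla, and 2, 3 and 2 were higher in lung than in tumor with shRenilla, shAsns-1 and shAsns-2. Pdgfrb was at 0 in all tumor shAsns-1 and tumor shAsns-2 libraries. The summed level of leukocyte and macrophage markers was 15.9 to 20.5 CPM in tumor shRenilla, 14.8 to 16.3 in tumor shAsns-2, 11.1 to 14.9 in tumor shAsns-1, 20.2 to 24.8 in lung shRenilla, 16.3 to 19.5 in lung shAsns-2 and 17.7 to 28.0 in lung shAsns-1. Of the 4 tested, 2 were lower in tumor shAsns-1 than in tumor shRenilla, and 1, 2 and 1 were higher in lung than in tumor with shRenilla, shAsns-1 and shAsns-2. Lyz2, the lysozyme gene of macrophages, averaged 0.310 CPM in tumor shRenilla and 1.46 in lung shRenilla, 0.334 in tumor shAsns-1 and 3.98 in lung shAsns-1, and 0.229 in tumor shAsns-2 and 1.26 in lung shAsns-2. The 7 lung epithelial markers summed to at most 0.405 CPM in any library. Among them Sftpc and Sftpb were at 0 in all 12 tumor libraries and reached at most 0.0651 and 0.0772 CPM in lung libraries, and Sftpa1 was at 0 in all 12 lung libraries. Endothelial markers summed to 2.34 to 5.55 CPM, erythroid markers to 0.347 to 2.03 CPM with Hba-a1 and Hbb-bs at 0 throughout, and lymphocyte markers to at most 0.101 CPM. Their part in the results was not tested. Short transcripts were common in the list, with 15 of the 35 genes at or under 2354 bases of exon, the bound of the shortest quintile of tested genes, and 1 in the longest quintile. Offsets for GC content and length, added after seeing the data, gave 25 calls in the list for tumor shAsns-1 against tumor shRenilla, where 41.5% of all tested genes were called, and 19 in each of the shRenilla and shAsns-2 site comparisons, where 28.0% and 28.3% were called.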

How the data were processed

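The authors' deposited table held read counts per gene, whole numbers that were not normalized. Bowtie2, HTSeq and build mm10 are named in the submitters' processing notes, without versions; the library kit was Nugen Ovation RNAseq V2, per the labels' protocols, and strand settings are not given in the sources used here. Counts were filtered (filterByExpr), scaled by TMM and fitted with edgeR 4.0.16 (R 4.3.3), one mean per group over all 24 libraries, with adjusted p-values over 12625 genes. The biological coefficient of variation was 14.9%. CPM used TMM library sizes. Alternatives used DESeq2 1.42.0, limma 3.58.1, other scaling, no filter, GC and length offsets and omitted libraries. The fit was tested on simulated data. Values per library are given for Nfe2l2, Keap1 and genes called with an absolute log2 fold change of at least 1 in a pairwise comparison, and for Gsr and Abcc1, chosen after their values were seen. At most 6 other pathway genes per comparison are named, by size of change among those with mean log2 CPM not under 3. The 35 genes and the other lists were chosen with earlier results of these data known. Positions and exons are from GENCODE M21, promoters from RefSeq.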

Additional observations from a re-analysis of the deposited data

Results flagged for a closer look

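Within groups of 4, 4 of 48 sets of values held a library whose gap to its nearest neighbour was unusually large for the range, and chance alone gives about 1 in 20. Nfe2l2 was at 105 CPM in tumor shAsns-2 D, where the other 3 libraries had 120 to 122 CPM, and at 132 CPM in lung shAsns-2 D, where the others had 202 to 209 CPM. Gstm1 was at 1.01 CPM in tumor shAsns-2 B, against 1.31 to 1.32 CPM in the others. Gstt1 was at 0.918 CPM in lung shAsns-2 A, against 0.456 to 0.497 CPM.

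The effect of the shAsns-1 label against shRenilla differed between lung and tumor cells for 10 of the 35 genes in edgeR's interaction test. The same test called 14.2% of all tested genes. On the log2 scale, lung minus tumor, the differences were -1.74 for Mgst1, -1.57 for Gstm1, -0.936 for Gstm2, -0.853 for Nfe2l2, -0.653 for Prdx1 and -0.516 for Gsr. They were 1.75 for Hmox1, 1.05 for Osgin1, 0.695 for Abcc1 and 0.674 for Abcc4. The calls of Prdx1, Gsr and Abcc1 were lost when any 1 of several libraries was left out.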

How the results depend on the processing

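No gene of the list called in a comparison changed sign under any alternative run for it, and calls held under all of them for 16 of 23 genes in tumor shAsns-1 against tumor shRenilla, 18 of 23 against tumor shAsns-2, 11 of 15 in each of lung against tumor with shRenilla and with shAsns-2, 1 of 4 with shAsns-1, and 7 of 10 for the site difference. Leaving out 1 library at a time gave 18 to 22, 20 to 23, 13 to 19, 13 to 20, 1 to 3 and 7 to 11 calls in these comparisons. The shares of all tested genes called with 1 library left out are not given here, so these ranges have no background beside them. Without the libraries B of lung shRenilla and D of lung shAsns-2, the counts were 10 for lung against tumor with shAsns-1 (4 as reported), 23 with shAsns-2 (15), 16 for the site difference (10) and 1 for lung shAsns-1 against lung shAsns-2 (0). limma with library weights gave 14, 24, 22 and 9 in those, and 4 and 3 for lung shAsns-1 and lung shAsns-2 against lung shRenilla (0 and 0). Fitting only the compared groups gave 14 for lung against tumor with shAsns-1, and GC and length offsets gave 17 for the site difference. Over all tested genes, counts in tumor shAsns-2 against tumor shRenilla were 8 as reported, 47 with DESeq2, 50 without the 2 libraries, 28 with the offsets, 14 with limma and 3 with only the compared groups. For lung shAsns-1 against lung shRenilla they were 26, 72 with DESeq2, 758 with limma and 1 with only the compared groups; for lung shAsns-2 against lung shRenilla 0, 2, 1548 and 0; and for lung shAsns-1 against lung shAsns-2 33, 63, 1924 and 6, with 180 without the 2 libraries. For lung against tumor with shAsns-1 they were 1079, 3015 without the 2 libraries, 3683 with only the compared groups and 4116 with limma. With shAsns-2 they were 2642, 4926, 1650 and 5041 in the same order, with shRenilla 2749 against 4595 with limma, and for the site difference of the shAsns-1 effect 1797 against 3676 with limma. Hmox1 in lung shAsns-2 against lung shRenilla turned from 0.03 to -0.55 with limma (adjusted p = 0.0239); the cause was not tested. With a replicate block the counts were 23, 23, 15, 15, 4 and 10. Of all tested genes it called 34.1%, 27.1%, 21.7%, 20.6%, 9.11% and 14.5% in the same order. Whether the letters A to D pair the libraries was not tested. The 60 same-letter pairs had a median r of 0.012 (range -0.415 to 0.465, 16 over 0.1), against 0.0011 for pairs with another letter. Of the 24 libraries 10 were closest to their own letter. Gstt1 in lung against tumor with shAsns-2 was the only gene of the list whose call ended under the block (adjusted p = 0.052). Low counts limit Gstt1, Gstm1 and Osgin1, the last measured from 17 to 88 reads per library.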
